A study of Rattus norvegicus with 6 samples.

Results

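The transcripts of 8 genes of sterol and fatty acid synthesis, *Hmgcs1*, *Sqle*, *Srebf1*, *Insig1*, *Insig2*, *Fasn*, *Acaca* and *Acly*, were compared between the islets of young (3 months) and old (12 months) rats. The genes were chosen by name for their place in lipid synthesis, with earlier results of these data known. Each was assigned the array probe whose RefSeq mRNA accession, without its version, belongs to that symbol. By this rule 5 of the 8 genes had a probe, among 13903 named genes in all: *Hmgcs1*, *Sqle*, *Insig2*, *Acaca* and *Acly*. *Srebf1*, *Insig1* and *Fasn* were not analysed here. *Acly* had 2 probes, of which the brighter was used, and the other 4 genes had 1 probe each, printed on 1 spot.

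The animals were male Wistar rats, untreated as far as the labels say, and the ages were the only labelled difference between them. Islets, the hormone-secreting cell clusters of the pancreas, had been freed with collagenase, and their total RNA was labelled with Cy3 and read on 1-colour arrays, with 3 arrays of each age. The design speaks of 3 rats of each age, but no label ties an array to an animal, so p-values measure the spread between arrays. Islets hold several endocrine cell types together with vessels, nerves and remnants of exocrine tissue, and in such a mixed sample fewer cells of a type and less RNA per cell cannot be told apart.

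Cholesterol and fatty acids are built from the same precursor, acetyl-CoA. ATP citrate lyase, encoded by *Acly*, makes cytosolic acetyl-CoA from citrate, and acetyl-CoA carboxylase (*Acaca*) turns it into malonyl-CoA for fatty acid synthesis. On the sterol branch, HMG-CoA synthase (*Hmgcs1*) feeds the mevalonate pathway, and squalene epoxidase (*Sqle*) carries out the first oxygenation on the way to cholesterol. The sterol regulatory element binding proteins (SREBPs, encoded by *Srebf1* and *Srebf2*) switch these enzymes on when membranes run short of sterol. The INSIG proteins hold the SREBP escort protein SCAP in the endoplasmic reticulum when sterol is plentiful. In beta cells, citrate leaving the mitochondria also supplies malonyl-CoA, which restrains fatty acid oxidation while glucose is high.

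Of the 5 measured genes, *Hmgcs1* was higher in the old islets and passed the test, with a 4.23-fold difference. *Acaca* lay lower on all 12-month arrays, by 1.89-fold, and narrowly missed the adjusted threshold. *Sqle*, *Insig2* and *Acly* did not pass, and their arrays overlapped between the ages. The old values of *Hmgcs1* and *Acaca*, early enzymes of the sterol branch and of fatty acid synthesis, thus lay on opposite sides of the young ones. All 5 genes were well above background on all 6 arrays, by the mark that the scanner software sets for each spot.

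Values are log2 intensities after quantile normalisation, which gives every array the same distribution of signals. A value therefore ranks a probe within its array, and levels are compared only between arrays for the same probe. Differences are 12 minus 3 months, with the standard error (SE) and two-sided p-value of limma, a linear model that shares information on the spread across all probes, adjusted by the Benjamini-Hochberg method over 17941 tested probes. The exact permutation test, with 20 arrangements of 3 against 3 arrays, cannot give a two-sided p under 0.1.

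By the adjusted p under 0.05, 1 of the 5 genes was called higher at 12 months, beside 5.32% of all tested probes, and 0 were called lower, beside 3.05%. At an unadjusted p under 0.05 limma put 1 gene on each side. By the cut-offs of the study, more than a 2-fold difference and a nominal p under 0.05, taken here from limma, 1 gene was called higher (10.1% of all probes) and 0 lower (11.9%). The 12-month arrays all lay above the 3-month arrays for 1 gene (16.5% of all probes) and all below for 1 gene (22.6%). A count of 1 among 5 genes, read against these shares, says little of the group as a whole, and the results below are those of single genes. The study took that p from another test, so these calls need not be its own. The median difference over all tested probes was -0.17 on the log2 scale, and 58% of them had a negative difference.

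Each age was read in scans of its own and no scan held both, so age and scan cannot be told apart. Negative control spots had a median signal of 89.5 to 91 intensity units in the old group and 29.5 to 31 in the young group. Between 59.5% and 64.2% of probes exceeded background clearly at 12 months, and between 73.1% and 77.5% at 3 months. The 3-month array 1 was dim, with a 75th percentile of signal of 353 intensity units against 1187 to 2611 on the other 5 arrays.

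**Figure D1:**
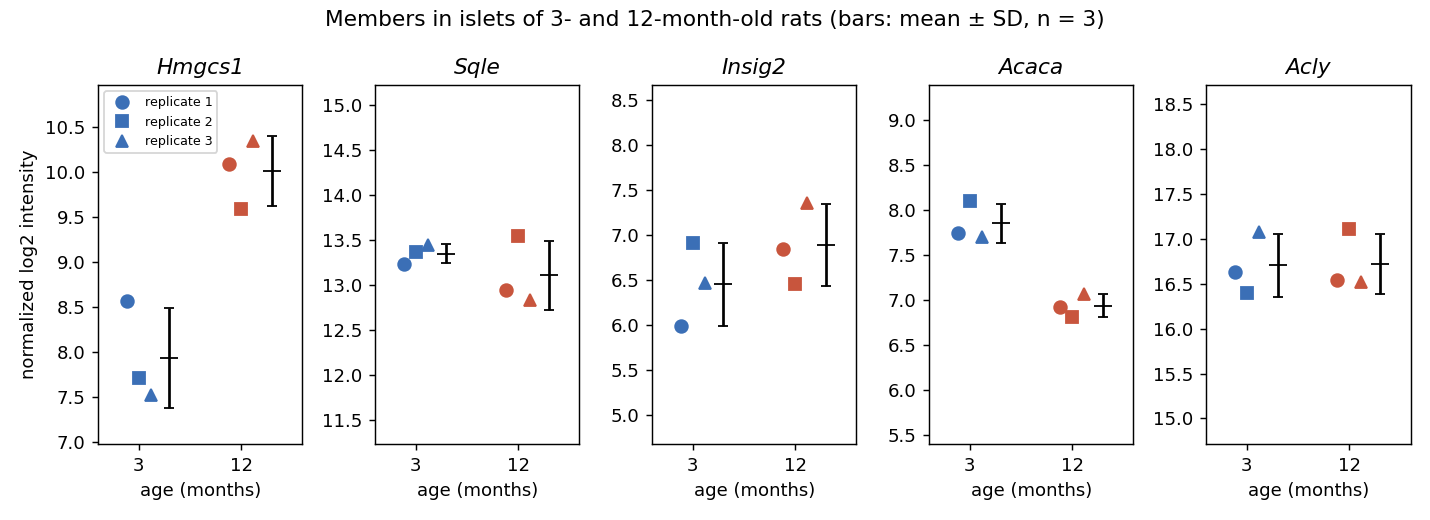
Normalised log2 intensity (vertical axis) of each measured gene on the 3 arrays of each age (horizontal axis, months), with 1 point per array and bars for the mean ± SD; every panel spans the same number of log2 units, so that slopes but not heights can be compared between genes. The 12-month arrays of *Hmgcs1* lie above all 3-month arrays and those of *Acaca* lie below them, while the other 3 genes overlap.

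In the sterol branch the earlier of the measured enzymes showed a rise that the later one did not share. *Hmgcs1*, whose product condenses acetyl-CoA with acetoacetyl-CoA, read 10.09, 9.59 and 10.35 on the 12-month arrays 1, 2 and 3. In young islets the arrays 1, 2 and 3 read 8.57, 7.71 and 7.51. The lowest 12-month array was thus above the highest 3-month array, which was the dim array 1. The means were 10.01 ± 0.39 and 7.93 ± 0.56 (SD, n = 3 each). The difference was 2.08 on the log2 scale (SE 0.37, 95% confidence interval 1.21 to 2.95, limma adjusted p = 0.0243, exact permutation p = 0.1).

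The separation was visible before any normalisation, where signals still carry the brightness of each array. The background-subtracted signal of *Hmgcs1* was 2228, 1301 and 1217 intensity units in old islets, against 121, 183 and 198 in young islets. Its difference lay at the 96.5th percentile of those of all tested probes, and 608th among them by p-value. Relative to the median of all tested probes, the gene was higher by 2.25 with quantile normalisation, by 2.47 when each array was only shifted to a common 75th percentile, and by 1.79 after another background correction (normexp).

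*Sqle*, the epoxidase that commits squalene to sterols, read 12.94, 13.54 and 12.83 at 12 months. At 3 months it read 13.24, 13.36 and 13.44. The 12-month array 2 gave the highest of the 6 values and the other two 12-month arrays the lowest, so the ages overlapped. The means were 13.11 ± 0.38 and 13.35 ± 0.10 (SD, n = 3 each), with a difference of -0.24 (SE 0.27, 95% interval -0.89 to 0.40, limma adjusted p = 0.551). A fall or a small rise within that interval could not be detected with 3 arrays of each age.

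The promoter of *Hmgcs1* is shown because it is the gene that rose, beside that of *Acly*, which did not pass the test. The 250 bases before the annotated start are given 5′ to 3′ on the gene's strand, from RefSeq on build GRCr8, with searched motifs in capitals. The *Hmgcs1* stretch lies at chr2:53382054-53382303 on the plus strand and the *Acly* stretch at chr10:85963632-85963881 on the minus strand.
Hmgcs1: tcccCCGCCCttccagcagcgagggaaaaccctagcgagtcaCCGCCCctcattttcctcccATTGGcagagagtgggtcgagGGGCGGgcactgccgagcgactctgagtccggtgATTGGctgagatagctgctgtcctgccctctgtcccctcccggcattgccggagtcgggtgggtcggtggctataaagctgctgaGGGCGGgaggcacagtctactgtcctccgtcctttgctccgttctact
Acly: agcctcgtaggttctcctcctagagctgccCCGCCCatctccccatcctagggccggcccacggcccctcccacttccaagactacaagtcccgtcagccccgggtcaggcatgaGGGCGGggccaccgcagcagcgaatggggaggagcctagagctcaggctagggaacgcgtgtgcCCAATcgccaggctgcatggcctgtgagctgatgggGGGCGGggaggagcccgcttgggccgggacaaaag
The motifs searched on both strands were TCACNCCAC (a form of the sterol regulatory element), CACGTG (the E-box), CCAAT (bound by NF-Y) and GGGCGG (bound by Sp1), none of which overlapped another in these stretches. NF-Y and Sp1 are general factors known to work beside SREBPs at sterol-regulated promoters.

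The *Hmgcs1* stretch held 2 NF-Y and 4 Sp1 motifs, and the *Acly* stretch held 1 and 3. Neither held the E-box or the sterol regulatory element in the spelling searched. Among 33469 RefSeq windows of 300 bases, which also take in 50 bases after the start, 37.5% held the NF-Y motif, 33.1% the Sp1 motif, 6.42% the E-box and 1.12% the sterol regulatory element. Windows were at hand for 5 of the 8 genes, and the only one of them with an E-box was *Insig1*. A match describes letters in a window and is not evidence of binding.

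*Insig2* did not pass the test. The gene, whose product retains SCAP and its SREBP cargo in the endoplasmic reticulum, read 6.85, 6.46 and 7.36 on the 12-month arrays. It read 5.99, 6.91 and 6.46 on the 3-month arrays. The highest value was on a 12-month array and the lowest on the dim 3-month array, and the ages overlapped between them. The means were 6.89 ± 0.45 and 6.45 ± 0.46 (SD, n = 3 each), a difference of 0.44 (SE 0.35, 95% interval -0.40 to 1.27, limma adjusted p = 0.411). Its signal before normalisation was 124 to 216 intensity units at 12 months and 28.8 to 106 at 3 months. Those signals did not overlap, as for *Hmgcs1*, although the normalised values of *Insig2* did.

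Of the enzymes that lead to fatty acids, the carboxylase lay lower at 12 months while the lyase upstream of it showed no difference beyond the spread between arrays. *Acaca* read 6.93, 6.81 and 7.07 on the 12-month arrays. In young islets it read 7.74, 8.11 and 7.70. The ages did not overlap, and the nearest values were 7.07 and 7.70. The means were 6.94 ± 0.13 and 7.85 ± 0.22 (SD, n = 3 each), giving a difference of -0.92 (SE 0.24, 95% interval -1.48 to -0.36, limma adjusted p = 0.0593, exact permutation p = 0.1).

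The separation of *Acaca* was absent before normalisation. Its background-subtracted signal was 229, 159 and 130 intensity units in old islets, against 75.8, 240 and 229 in young islets, with the dim array below all others. Relative to the median of all tested probes the gene was lower in each of the 3 scalings, with differences of -0.75 for quantile normalisation, -0.69 for the 75th percentile shift and -0.64 for normexp. The adjusted p fell on either side of 0.05 with the setting, from 0.0312 with normexp (limma) to 0.320 with a replicate block on the numbered pairs alone, a setting chosen after seeing the data.

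*Acly*, the source of cytosolic acetyl-CoA for both branches, read 16.54, 17.11 and 16.52 at 12 months. It read 16.63, 16.40 and 17.08 at 3 months. The ages interleaved, with the highest value at 12 months and the lowest at 3 months. The means were 16.72 ± 0.33 and 16.70 ± 0.35 (SD, n = 3 each), a difference of 0.020 (SE 0.30, 95% interval -0.69 to 0.73, limma adjusted p = 0.969) that turned to -0.40 with the 75th percentile shift. The other *Acly* probe gave 16.66 ± 0.31 and 16.73 ± 0.34 (SD, n = 3 each), a difference of -0.070 (SE 0.29, limma adjusted p = 0.881), so the probes differed in sign by less than their errors.

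The genes were then compared with each other on the same array, which removes whatever shifts a whole array by a constant. This comparison was chosen after seeing the data. Of 10 pairs, 7 changed between the ages without overlap, each with an exact permutation p of 0.1 (0.143 adjusted over the 10 pairs). Over all pairs of tested probes 36.8% changed without overlap. The 7 pairs were those that include *Hmgcs1* or *Acaca*, the genes that did not overlap on their own, so they are not separate evidence. *Hmgcs1* gained on each of the other 4 genes. Against *Acaca* the change was 3.00 on the log2 scale, with an SD of the within-array difference of 0.27 in old and 0.65 in young islets (n = 3 each). The changes against *Sqle*, *Acly* and *Insig2* were 2.32, 2.06 and 1.64.

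*Acaca* lost ground to each of the other 4 genes. *Insig2* minus *Acaca* changed by 1.35, *Sqle* minus *Acaca* by 0.67 and *Acaca* minus *Acly* by -0.94. The pairs among *Sqle*, *Insig2* and *Acly* overlapped between the ages. *Sqle* and *Acly* kept a steady distance on the 12-month arrays, with an SD of 0.066 for their difference against 0.30 on the 3-month arrays. A ratio within an array shows unequal change and does not say which of a pair changed.

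**Figure D2:**
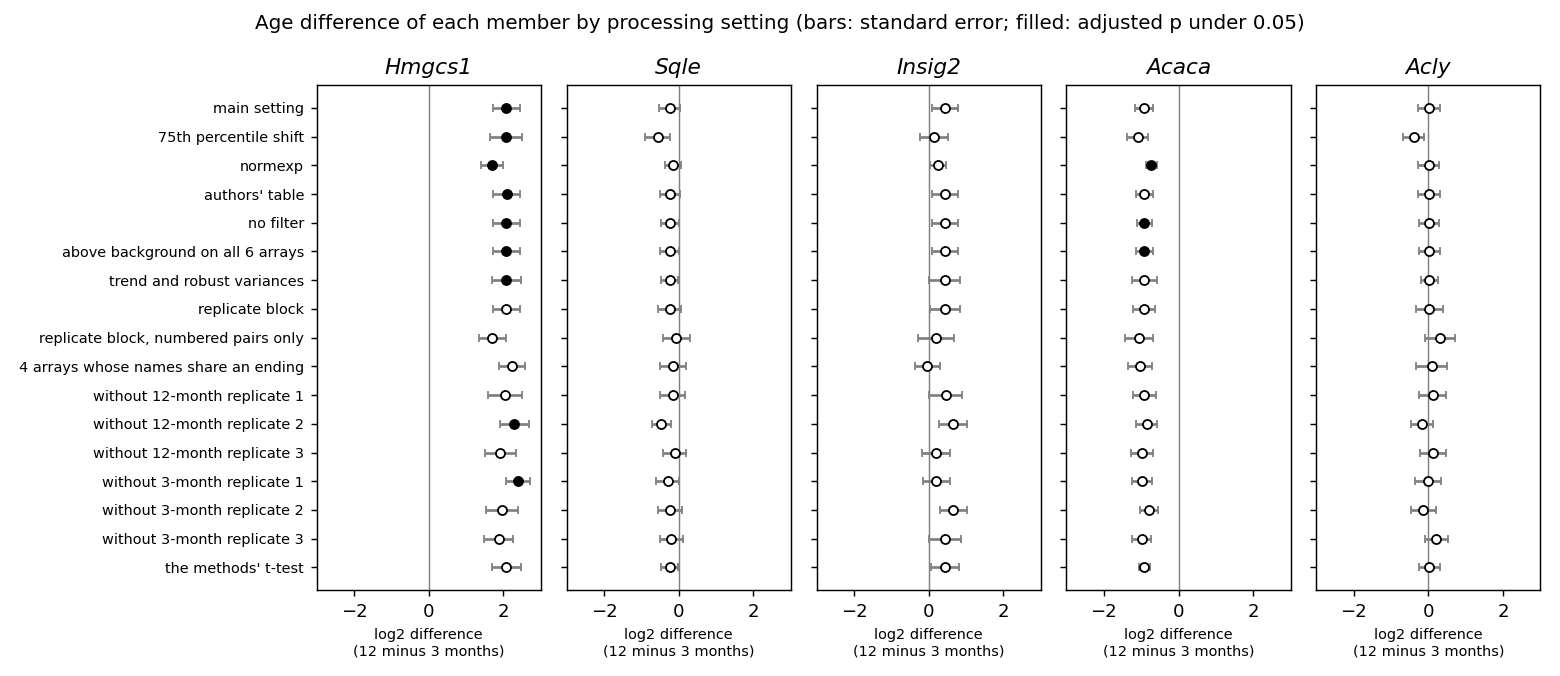
Age difference of each measured gene on the log2 scale (horizontal axis, 12 minus 3 months) under each processing setting (vertical axis), with bars for the standard error and filled points for an adjusted p under 0.05. *Hmgcs1* lies above 0 and *Acaca* below 0 in every setting, whereas *Acly* falls on both sides. The filters, variance models and replicate block leave a gene's difference unchanged, so those points are not separate evidence of its sign.

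*Hmgcs1* was above 0 in 16 of 16 alternative settings, by 1.69 to 2.40, and past the study's cut-offs in all 16, but it kept an adjusted p under 0.05 in 8 of them. Leaving out an array gave 1.87 to 2.40, and the adjusted p stayed under 0.05 without the 12-month array 2 (limma adjusted p = 0.0260) or the 3-month array 1 (limma adjusted p = 0.0376). Without the 12-month array 1 or 3 it was 0.0968 or 0.0802 (limma, adjusted p), and without the 3-month array 2 or 3 it was 0.0590 or 0.0734 (limma, adjusted p). *Acaca* was below 0 in 16 of 16 settings, with differences of -1.09 to -0.73. For both genes these sign counts are weak evidence. The filters, variance models and replicate block left the difference unchanged and altered only its error or the probes tested. Because the ages did not overlap, leaving out an array could not turn the sign.

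The wider pathways were described with 6 lists holding 108 genes, of which 86 were tested, including the 5 genes above. By an adjusted p under 0.05, 4 of the 86 were higher (4.65%, beside 5.32% of all tested probes) and 3 lower (3.49%, beside 3.05%), so the lists as a whole stood near the background. When each array was left out in turn, *Ggps1*, *Dgat2* and *Soat1* kept their call in 2 of 6 cases and *Acsl3* and *Prkag1* in 0, all with their direction unchanged. Most enzymes of cholesterol synthesis did not follow *Hmgcs1*. In that list 2 of 19 tested genes were higher and 0 lower (limma, 2 and 3 at an unadjusted p under 0.05), with a list median of -0.10, against -0.17 over all tested probes.

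The other called gene of the list was *Ggps1*, which makes geranylgeranyl diphosphate, a side branch of the mevalonate pathway used to anchor proteins in membranes. It read 8.26, 8.96 and 8.52 at 12 months and 6.41, 7.27 and 6.20 at 3 months, without overlap. The difference was 1.96 (SE 0.36, limma adjusted p = 0.0270).

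The regulators showed no call. Of 10 tested genes of SREBP processing and lipogenic control, 0 were higher and 0 lower (limma, 2 and 0 at an unadjusted p under 0.05), and the list median was 0.27. *Srebf2*, the SREBP gene of sterol synthesis, had means of 13.11 ± 0.20 and 13.14 ± 0.23 (SD, n = 3 each), and *Scap* 12.32 ± 0.26 and 12.05 ± 0.36. *Mlx*, the partner of the carbohydrate response factor, differed by 0.73 (limma adjusted p = 0.0792) without overlap. *Thrsp*, a lipogenic nuclear protein, was above background on only 2 of the 12-month and 1 of the 3-month arrays, and its difference was 1.90 (limma adjusted p = 0.116) but 0.30 after normexp.

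Among 20 tested genes of fatty acid synthesis and modification, 1 was higher and 0 lower (limma, 3 and 2 at an unadjusted p under 0.05), with a list median of -0.041. The called gene was *Acsl3*, a ligase that activates long-chain fatty acids at lipid droplets, with 11.19 ± 0.12 at 12 months and 10.17 ± 0.074 at 3 months (SD, n = 3 each; limma adjusted p = 0.0387). *Scd*, the desaturase that makes oleate, differed by -0.56 (SE 0.49, limma adjusted p = 0.448) with overlapping arrays.

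Of 9 tested genes of triglyceride synthesis, 7 had a negative difference (58% of all tested probes did), 1 was called lower and 0 higher (limma, 0 higher and 3 lower at an unadjusted p under 0.05), and the list median was -0.53. *Dgat2*, which adds the last fatty acid to a triglyceride, had 8.46 ± 0.039 at 12 months and 10.06 ± 0.49 at 3 months (SD, n = 3 each). Its difference was -1.60 (SE 0.30, limma adjusted p = 0.0278). *Gpat4*, an acyltransferase of the first step, differed by -0.77 (limma adjusted p = 0.0684).

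In sterol uptake, storage and efflux 1 of 10 tested genes was higher and 0 lower (limma, 2 and 1 at an unadjusted p under 0.05), with a list median of 0.52. *Soat1*, which esterifies cholesterol for storage, read 8.23, 7.27 and 9.49 at 12 months and 4.43, 5.35 and 3.09 at 3 months. The difference was 4.04 (SE 0.73, limma adjusted p = 0.0266), but the gene was above background on only 2 of the 3-month arrays and its size depended on the background correction, with 2.17 after normexp and 3.44 to 4.57 when an array was left out. *Abcg1*, a sterol exporter, differed by 0.83 (limma adjusted p = 0.0597) without overlap.

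The last list held subunits of AMPK, the kinase that phosphorylates and inhibits acetyl-CoA carboxylase, together with fatty acid oxidation genes. Of 18 tested, 2 were counted as lower and 0 higher (limma, 0 higher and 3 lower at an unadjusted p under 0.05), and the median was -0.063. *Prkag1*, a regulatory subunit, had 11.18 ± 0.18 at 12 months and 12.27 ± 0.15 at 3 months (SD, n = 3 each; limma adjusted p = 0.0378). The other lower gene, *Prkab2*, also a regulatory subunit, passed the filter on dim probes only through its 3-month arrays, since none of the 12-month arrays showed it clearly over background. Its call is therefore not a result and no difference is given; without it, 2 genes of all 6 lists were called lower.

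**Figure D3:**
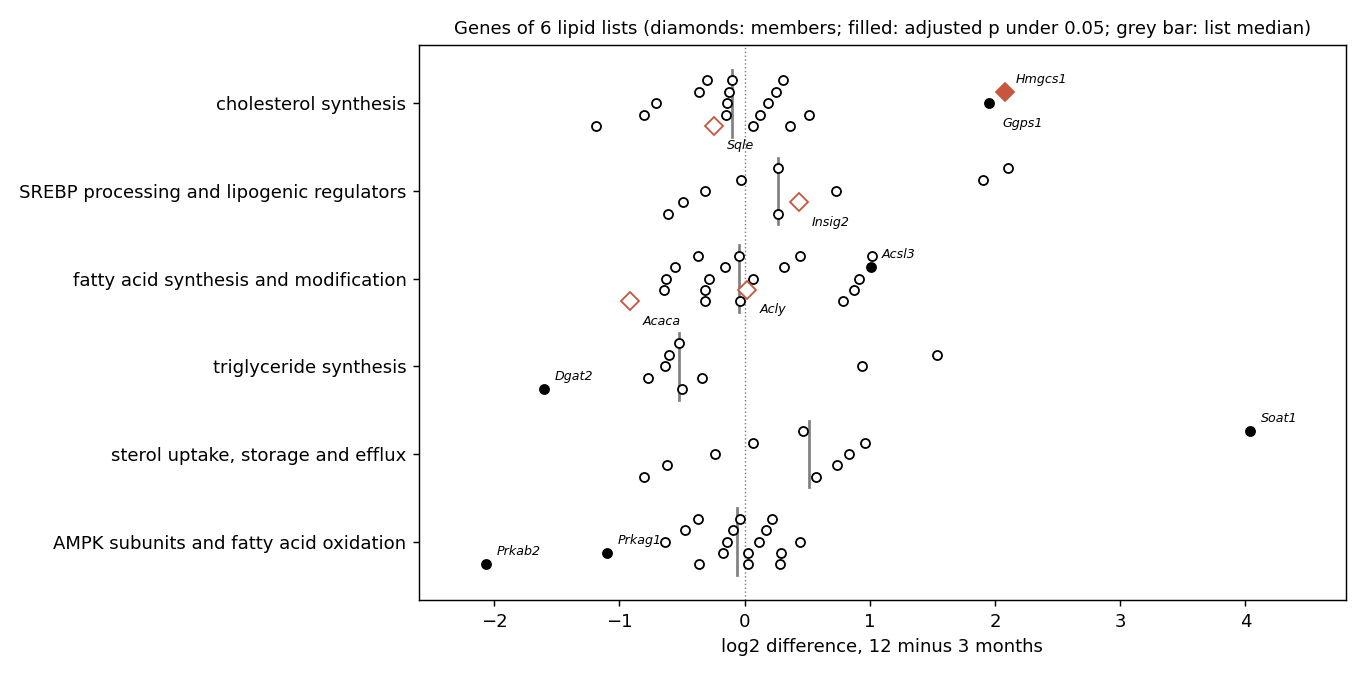
Fitted log2 differences (horizontal axis, 12 minus 3 months) of the tested genes of 6 lipid lists (vertical axis), with 1 point per gene, diamonds for the measured genes of the report, filled points for an adjusted p under 0.05 and a grey bar for each list's median. The 7 filled points are few in each list, and *Hmgcs1* and *Ggps1* stand apart from the other cholesterol synthesis genes; the point of *Prkab2* is no measured size, because its 12-month signal was not well above background.

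Likeness to a gene was measured as the root mean square difference of the mean-centred log2 profiles over the 6 arrays, among 83 other genes of the lists, and is given without a test. The profiles most like *Acly* among these were those of *Hacd3* (0.15) and *Slc25a20* (0.16). For *Acaca* it was *Ebp* (0.11) and *Gpat4* (0.22). For *Sqle* it was *Acss2* (0.12) and *Acsl4* (0.13), and for *Insig2* it was *Mylip* (0.31) and *Mlx* (0.32). *Hmgcs1* had no close match, the nearest being *Ggps1* (0.64) and *Acsl3* (0.67). Profiles were not scaled, so this distance grows with the size of a gene's changes, and genes that vary little match more closely.

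Markers of cells that islet preparations hold were read beside these genes. Beta cell markers were bright on all arrays, with a summed level of 1052560 to 1197310 at 12 months and 828988 to 970440 at 3 months. Of 7 tested, 5 had a positive and 2 a negative difference, and 2 were called higher, beside 5.32% of all tested probes. The 2 called were *Slc2a2*, with a difference of 4.11 (limma adjusted p = 0.00369), and *Slc30a8*, with 3.71 (limma adjusted p = 0.00904), both without overlap. Bright *Iapp* differed by 0.95 (limma adjusted p = 0.0532). *Ins1* and *Ins2* differed by 0.098 and -0.12 with overlapping arrays (limma adjusted p = 0.786 and 0.737), so the sums do not speak for every marker. Acinar markers were bright too (0 of 8 called by limma, and 0 at an unadjusted p under 0.05 in either direction), with sums of 1709940 to 2528830 and 1624930 to 2269940. Their spread within an age was unequal. *Ctrb1* had 16.65 ± 1.96 at 12 months and 15.90 ± 1.64 at 3 months, whereas *Pnlip* had 18.46 ± 0.027 and 18.40 ± 0.11 (SD, n = 3 each). *Pnlip*, several other acinar markers and *Ins1* lay among the brightest probes, where quantile normalisation gives every array the same few values. A small SD or difference there says little of the RNA level. All 5 stellate and mesenchymal markers had a positive difference, whereas 58% of all tested probes had a negative one. Of them 1 was called higher, beside 5.32% of all tested probes. Their median was 1.53, with sums of 25324 to 64920 against 9728 to 17000.

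Nerve and Schwann cell markers lay lower at 12 months, and endothelial markers were mixed in direction. All 5 tested nerve and Schwann cell markers had a negative difference, beside 58% of all tested probes, and 2 were called lower, beside 3.05%. Their median was -1.42, with sums of 1905 to 2699 at 12 months against 3886 to 7765 at 3 months. Of these markers, *Sox10* lacked a value on the 3-month array 1, so its fit left out that array and the sums left out the gene. Endothelial markers had a median of -0.86 over 4 tested, with sums of 28942 to 49121 against 52346 to 67537, and 0 were called (limma, 1 higher and 2 lower at an unadjusted p under 0.05). The higher marker was *Pecam1*, with a difference of 1.23 and all 12-month arrays above the 3-month arrays. *Cdh5*, 1 of the 2 lower markers, passed the filter on dim probes only through its 3-month arrays. Its difference is therefore not a result, although the median includes it. Among alpha cell, delta and PP cell, duct, immune and red blood cell markers, 1 of the 3 delta and PP cell markers was called higher. No other was called, beside 5.32% of all tested probes called higher and 3.05% lower.

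Adipocytes, which express lipid synthesis genes strongly, can adhere to isolated islets. Of 8 tested markers, 3 had a positive and 5 a negative difference (58% of all tested probes were negative), and the median was -0.057. By limma 1 was called higher, beside 5.32% of all tested probes, and 0 lower, beside 3.05% (1 and 2 at an unadjusted p under 0.05). The called marker was *Fabp4*, with a difference of 2.49 (limma adjusted p = 0.0185), whereas *Cfd* had -1.05 (limma adjusted p = 0.145) with all 12-month arrays below the 3-month arrays. The defining marker *Adipoq* read 10.34, 6.13 and 6.07 on the 12-month arrays 1, 2 and 3, and 6.88, 5.98 and 5.96 on the 3-month arrays. Its means were 7.51 ± 2.44 and 6.27 ± 0.53 (SD, n = 3 each), the older one raised by the 12-month array 1 alone. No 12-month array showed *Lep* or *Retn* clearly over background, so these genes passed the filter on dim probes only through their 3-month arrays. Their negative differences are therefore not a result, although the counts and the median of the list include them. The summed level of the adipocyte markers ranged from 3527 to 6067 at 12 months and from 2655 to 4964 at 3 months. The part of any of these cell types in the differences of *Hmgcs1* and *Acaca* was not tested.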

How the data were processed

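RNA of rat islets was profiled on 1-colour arrays, 3 of each age, grouped by the age in the labels. Per the file headers, the deposited scanner files hold spot intensity from Agilent Feature Extraction, background-subtracted and not normalised between arrays, with median spot and background intensity and quality marks. The authors also deposited log2 values of 12145 probes, which followed the values computed here (lowest correlation across probes 0.9996); their filter is not given in the sources used here.

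Background-subtracted intensity was put on the log2 scale, averaged over spots without an outlier mark and quantile normalised. Probes well above background on at least 3 of 6 arrays were kept (17944 of 24684; 17941 tested; none was saturated). Ages were compared with limma 3.58.1 in R 4.3.3 (lmFit and eBayes, no block), which was first tested on simulated data. Arrays have no read depth, and their number limits the precision.

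Names came from RefSeq accessions matched to a GRCr8 table (14274 of 15321 mRNA probes), taking the brightest probe of a gene. The members and lists were chosen with earlier results of these data known. Beyond the 5 genes, the text names, of each list, up to 2 called rises and 2 called falls without overlap, or the 2 smallest p-values, and *Srebf2*, *Scap* and *Scd*. The counts include 2 list genes that are not reported here by name and were left out of the likeness. Marker genes, and list genes named for likeness, were named after their values were seen. Alternatives were the 75th percentile shift, normexp (offset 50), the authors' table, filters, variance models, a replicate block, 4 arrays, leaving out arrays, the methods' t-test and a second probe. The study's tables name a paired t-test; it was run unpaired here, because the labels do not pair the arrays, and calls at the study's cut-offs use limma's p.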

Additional observations from a re-analysis of the deposited data

How the results depend on the processing

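The number of genes called at an adjusted p under 0.05 was 1 of 5. It was 2 with normexp, without a filter, with a filter of 6 of 6 arrays above background, and when the adjusted threshold was 0.1, but 0 with the replicate block, the numbered pairs, the 4 arrays whose names share an ending and the methods' t-test. Leaving out an array gave 0 to 1. Past the study's threshold it was 1, and 2 with the 75th percentile shift, the numbered pairs and the 4 arrays. Of the pathway genes, 4 were higher: 7 with normexp, without a filter or with trend and robust variances, 0 with the block, the numbered pairs and the 4 arrays, and 0 to 4 without an array. The 3 lower became 5 with normexp or without a filter, 6 with the 6-array filter, 7 with trend and robust variances, 1 with the methods' t-test, 0 with the block, the numbered pairs and the 4 arrays, and 0 to 2 without an array.

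The sign of *Acly* turned with the 75th percentile shift (-0.40), without 12-month array 2 (-0.17), without 3-month array 1 (-0.015) or 2 (-0.13), and with its second probe (-0.070); leaving out an array gave -0.17 to 0.21. *Srebf2* turned with normexp (0.021), without 12-month array 1 (0.038) or 2 (0.013) and without 3-month array 1 (0.10; range from -0.14). *Insig2* was -0.031 with the 4 arrays. The cause was not tested.

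With the replicate number as a block, *Hmgcs1* differed by 2.08 (limma adjusted p = 0.0873); with the numbered pairs alone, chosen after seeing the data, by 1.70 (limma adjusted p = 0.246). Same-numbered arrays did not deviate together (correlations -0.010, -0.31 and -0.26). With 3 arrays of each age this cannot exclude a pairing. The number 3 on the 12-month side came from the order of the samples and not from a label. A scan block could not be fitted, because no scan holds both ages.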
